A study of Mus musculus with 4 samples.

Results

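Potassium channel genes were examined in 4 samples of mouse dorsal cortex at E18.5 (embryonic day), taken straight from the animal, each on a whole-transcript array read in 1 colour. The members were the genes whose platform symbol begins with Kcn, leaving out Kcnj10, with the brightest feature standing for a gene. This gave 91 of the 19938 genes that the table names with a single symbol, and they were divided into 16 groups by symbol prefix. Both groups of embryos lacked Mek2 (Mek2-/-). The 2 control embryos carried Mek1fl/wt, 1 floxed and 1 wild-type copy of Mek1. The 2 mutant embryos carried Mek1fl/fl and the NestinCre transgene. This transgene makes Cre recombinase in neural progenitors, so that their neuronal and glial descendants inherit the deletion. Which cells of these samples carried the deletion was not measured. The series' design text names the controls WT, although their genotype label is null for Mek2. NestinCre is given for the mutants only, so its own effect and the loss of Mek1 cannot be told apart. The comparison asks which transcripts differ when the cortex loses Mek1 in addition to Mek2, the kinases that activate ERK.

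Potassium channels set the resting potential and end action potentials by letting potassium leave the cell. Voltage-gated channels (Kcna to Kcnd, Kcnh and Kcnq) open on depolarisation, calcium-activated ones (Kcnma1 and Kcnn) on a rise of internal calcium, inward rectifiers (Kcnj) hold the membrane near rest, and the 2-pore family (Kcnk) carries leak current. Many prefixes name helpers rather than pores: KChIP proteins (Kcnip) are calcium sensors bound to Kcnd channels, Kcnab and Kcne proteins are further subunits, and Kcnmb proteins belong to the large-conductance channel of Kcnma1. Neurons switch on many of these genes as they mature, and astrocytes depend on their own set to clear potassium.

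Values were log2 expression on the authors' RMA scale, and all differences are mutant minus control on that scale. RMA forces the arrays to a similar distribution and compresses differences of dim genes towards 0. The labels give neither litter, batch nor day for any sample, and p-values measure only the spread between these samples. Over the 13956 genes tested, the root mean square difference was 0.149 between the controls, 0.191 between the mutants, and 0.178 to 0.230 between a control and a mutant. Map2k1, the gene for MEK1, read 8.76 and 8.84 in controls and 8.50 and 8.73 in mutants (difference -0.19 ± 0.09 SE; limma adjusted p = 0.469). Map2k2, the gene for MEK2, read 8.57 and 8.47 against 8.57 and 8.64. Its signal does not show the Mek2 deletion in either group, and which probes lie in the deleted parts is not stated, so neither gene checks the labels. By Xist, an RNA of female cells, control 1 and mutant 2 were female and the other arrays male. Markers of cortical neurons were present on every array, with Neurod6 between 12.02 and 12.11 and Tubb3 between 12.60 and 12.86.

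Kcnip3 was the 1 potassium channel gene that passed the test over all genes, and it fell. Its relative Kcnip4 had the largest positive difference among the members and missed the threshold. Since these 2 genes of 1 family carried the largest differences, in opposite directions, a promoter window of each is shown, from RefSeq (GRCm38.p6), 250 bases before to 50 after an annotated start. The RefSeq table held windows for 69 of the 91 members, and the first listed of 3 windows is given for Kcnip3 and of 2 for Kcnip4. Which start is used in these embryos was not measured. Capitals mark matches to TGANTCA, a motif of AP-1 factors, on either strand. The Kcnip3 window lies at chr2:127522045-127522344, minus strand, and the Kcnip4 window at chr5:49285610-49285909, minus strand.
Kcnip3: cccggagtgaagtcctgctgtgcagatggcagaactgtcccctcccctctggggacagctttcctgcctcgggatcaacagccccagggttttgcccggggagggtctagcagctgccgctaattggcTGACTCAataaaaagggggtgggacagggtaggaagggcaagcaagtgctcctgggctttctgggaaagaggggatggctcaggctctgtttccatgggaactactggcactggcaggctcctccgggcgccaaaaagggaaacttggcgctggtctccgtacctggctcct
Kcnip4: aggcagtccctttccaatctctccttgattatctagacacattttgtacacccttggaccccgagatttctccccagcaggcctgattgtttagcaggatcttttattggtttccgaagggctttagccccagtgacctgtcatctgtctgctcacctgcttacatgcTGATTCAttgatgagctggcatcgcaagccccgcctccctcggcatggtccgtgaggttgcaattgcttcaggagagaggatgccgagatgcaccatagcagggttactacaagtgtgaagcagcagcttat

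Each of these windows held 1 match to TGANTCA, and neither held CCGGAA, the core bound by ETS factors, or TGACGTCA, the site of CREB. No stretch of either window matched more than 1 of these motifs. Among 32817 windows of the same length, TGANTCA occurred in 7.81%, CCGGAA in 14.9% and TGACGTCA in 1.79%. Among the 94 windows of the members, TGANTCA occurred in 4 and CCGGAA in 8, which are shares of 4.26% and 8.51%. The other windows of Kcnip3 and Kcnip4 held no match to any of the 3 motifs. A match describes the letters and does not show binding.

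Kcnip3 encodes KChIP3, a calcium-binding protein also known as calsenilin and DREAM, which modulates Kcnd channels and can act on transcription. It read 9.12 and 9.09 in the controls and 8.53 and 8.64 in the mutants. Both mutants lay below both controls, with a gap wider than the spread within either pair. The mean fell from 9.10 ± 0.02 to 8.58 ± 0.08 (SD, n = 2 each), which is a 1.43-fold decrease (difference -0.52 ± 0.06 SE; limma adjusted p = 0.0427). The call was lost without control 1 (adjusted p = 0.293), without control 2 (adjusted p = 0.240), when dim genes were kept (adjusted p = 0.105) and with the replicate number as a block (adjusted p = 0.0707), while the difference itself ran from -0.46 to -0.57 with any 1 array left out. In whole tissue, fewer cells that express a gene and less of its RNA per cell cannot be told apart.

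Kcnip4, encoding KChIP4, a family member that slows Kcnd channel inactivation, read 7.15 and 7.22 in controls and 7.80 and 7.63 in mutants. Both mutants lay above both controls, by 1.44-fold on the means (difference 0.53 ± 0.08 SE; limma adjusted p = 0.0615). It passed the threshold without mutant 1 (adjusted p = 0.0429), without mutant 2 (adjusted p = 0.00689) and with a mean-variance trend (adjusted p = 0.0472). In the other fits that kept the gene it did not pass: the adjusted p was 0.356 without control 1, 0.249 without control 2, 0.143 with dim genes kept, 0.100 with the replicate block, 0.0820 under both rescalings and 0.0596 with all features of a gene averaged. The other KChIP genes had smaller differences. Kcnip2 read 7.86 and 8.12 in controls and 8.15 and 8.19 in mutants, close to control 2. Kcnip1 read 7.91 and 7.95 against 7.52 and 7.88, so that mutant 1 carried most of its difference of -0.23. The family was therefore split into 2 genes with a higher and 2 with a lower mean in the mutants, and its median of -0.02 describes none of the 4.

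**Figure D1:**
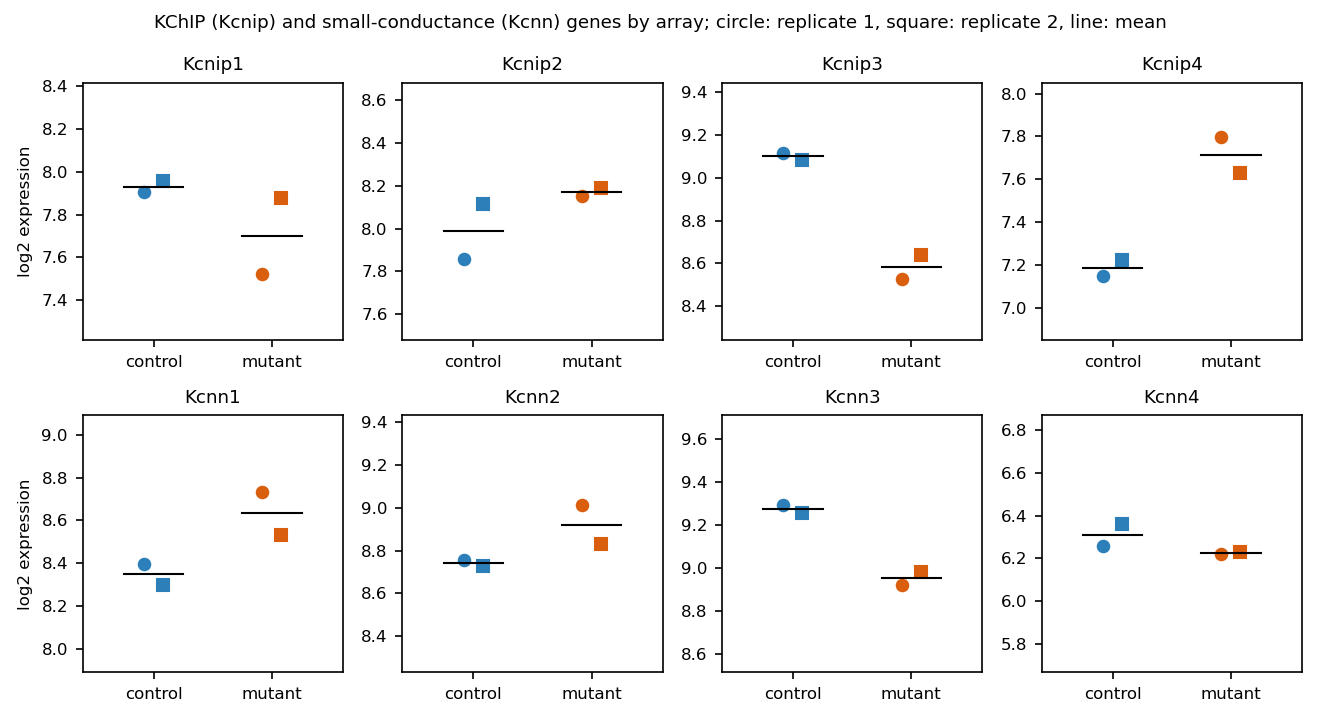
Log2 expression (vertical axis, a span of equal width in each panel) of the 4 Kcnip and 4 Kcnn genes in control and mutant arrays; circles are replicate 1, squares replicate 2 and black lines group means. Kcnip3 went from 9.10 to 8.58 and Kcnip4 from 7.18 to 7.71, and Kcnn3 and Kcnn1 likewise lay on opposite sides of their controls.

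Among the Kcnd pores that KChIP proteins bind, the members' differences were smaller. Kcnd1 read 6.86 and 6.92 in controls and 7.05 and 7.02 in mutants (difference 0.14 ± 0.06 SE; limma adjusted p = 0.382). Kcnd3 read 8.45 and 8.38 against 8.16 and 8.31 (difference -0.18 ± 0.07 SE; limma adjusted p = 0.400). Kcnd2, the main A-type pore of cortical dendrites, read 9.40 and 9.44 against 9.15 and 9.41, with mutant 2 between the controls. Kcnd3os, a noncoding RNA named for its position opposite Kcnd3, had a difference of 0.11. No Kcnd member passed the test. The partners Dpp6 and Dpp10, membrane proteins that join the same complex, differed by -0.01 and -0.04.

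The small-conductance calcium-activated channels were divided like the KChIP genes. Kcnn3, a channel of neurons and astrocytes, read 9.29 and 9.25 in controls and 8.92 and 8.98 in mutants. Both pairs were tight and apart (difference -0.32 ± 0.06 SE), yet the gene did not pass (limma adjusted p = 0.0953). It passed without mutant 2 (adjusted p = 0.0372) and in no other alternative, where the adjusted p ran from 0.0531 with a trend to 0.569 without control 1. Kcnn1 read 8.40 and 8.30 in controls and 8.74 and 8.53 in mutants, a difference in the other direction of 0.28 ± 0.09 SE (limma adjusted p = 0.271). Kcnn2 leaned the same way as Kcnn1, with 8.75 and 8.73 against 9.01 and 8.83. Kcnn4, the intermediate-conductance channel of blood and microglial cells, lay near the level below which genes were left out as dim (6.16), at 6.26 and 6.36 against 6.22 and 6.23.

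The large-conductance channel and its subunits had mostly higher means in the mutants. The pore gene Kcnma1 read 8.87 and 9.04 in controls and 9.14 and 9.13 in mutants (difference 0.18 ± 0.07 SE; limma adjusted p = 0.391). A much dimmer second feature for it differed by 0.16, but its groups overlapped, at 2.97 and 3.56 in controls and 3.53 and 3.32 in mutants. Kcnmb4, the neuronal beta subunit, read 9.06 and 9.01 in controls and 9.34 and 9.21 in mutants (difference 0.24 ± 0.07 SE; limma adjusted p = 0.240). Kcnmb4os2, a noncoding RNA neighbouring Kcnmb4, read 6.71 and 6.73 against 6.90 and 7.02, also without overlap. Probe positions are not stated, so whether the values of these neighbours share signal was not tested. Kcnmb3 differed by 0.26 and Kcnmb2 by -0.09. The 6 Kcnm genes tested included Kcnmb4os2 and a second gene named for Kcnmb4, Kcnmb4os1, which differed by 0.03 with overlap. The median of the 6 was 0.21, which does not describe the channel and its subunits alone. None of the 6 passed.

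Kcnq genes encode the channels of the M-current, a slow potassium current that restrains repetitive firing. Kcnq5 read 8.99 and 9.09 in controls and 9.47 and 9.24 in mutants (difference 0.31 ± 0.09 SE; limma adjusted p = 0.260). Kcnq3 read 9.17 and 9.00 against 9.23 and 9.36 (difference 0.20 ± 0.08 SE; limma adjusted p = 0.388). In both genes the mutants lay above the controls, and Kcnq1, a channel better known from heart and epithelia, differed by 0.01. Kcnq5 passed without mutant 2 (adjusted p = 0.0273), in the fit whose mutant side is mutant 1 alone, and in no other alternative, where the adjusted p ran from 0.182 with a trend to 0.809 without control 1.

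In the Kcnh group, Kcnh1, an ether-a-go-go channel, had the largest difference. It read 6.81 and 6.92 in controls and 7.43 and 7.13 in mutants (difference 0.41 ± 0.11 SE; limma adjusted p = 0.225), and mutant 1 stood above mutant 2 by more than the controls differed. The difference of Kcnh1 was 0.26 without mutant 1 and 0.57 without mutant 2. Kcnh3, an Elk channel of forebrain neurons, read 8.22 and 8.12 against 8.27 and 8.36. The other Kcnh genes tested differed by -0.05 to 0.11.

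Among Kcna genes, the delayed rectifiers of axons, Kcna1 read 6.63 and 6.61 in controls and 6.81 and 6.77 in mutants (difference 0.17 ± 0.06 SE; limma adjusted p = 0.304). Kcna6 read 8.02 and 8.10 against 8.19 and 8.23. Kcna4, which gives a fast-inactivating current, had the lowest difference of the 6 tested, -0.14, and its groups overlapped. The Kcnab subunits that attach to these pores had higher means in all 3 cases. Kcnab1 read 8.28 and 8.19 in controls and 8.56 and 8.44 in mutants (difference 0.26 ± 0.07 SE; limma adjusted p = 0.225), and Kcnab3 read 7.15 and 7.01 against 7.21 and 7.26. None of these genes passed.

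The remaining delayed rectifiers lay near 0. Kcnb2, a pore of the soma and dendrites, read 8.43 and 8.47 in controls and 8.45 and 8.49 in mutants. Kcnc genes encode the fast channels of rapidly firing interneurons. Kcnc2 read 8.36 and 8.32 against 8.23 and 8.38, and Kcnc4 read 7.63 and 7.52 against 7.33 and 7.74, with the mutants on either side of the controls in both genes. The limma adjusted p of Kcnb2, Kcnc2 and Kcnc4 lay between 0.882 and 0.945, which does not show that the levels are equal.

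Silent subunits form no channel alone and modify Kcnb pores. Kcnv1 read 8.28 and 8.22 in controls and 8.48 and 8.63 in mutants, with no overlap (difference 0.30 ± 0.07 SE; limma adjusted p = 0.187). Kcnf1 read 7.01 and 6.96 against 7.06 and 7.24. Kcng4 and Kcng3 differed by 0.19 and 0.14, and in each the groups overlapped. Kcnrg, a soluble protein that interferes with channel assembly, read 7.80 and 7.76 against 7.92 and 7.93 (difference 0.14 ± 0.06 SE; limma adjusted p = 0.370). None of the 12 members tested with the prefixes Kcnf, Kcng, Kcnr, Kcns, Kcnt or Kcnv passed.

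Kcne1l, the single Kcne gene bright enough to test, encodes a small accessory subunit that modulates voltage-gated pores. It read 6.96 and 6.86 in controls and 6.54 and 6.64 in mutants (difference -0.32 ± 0.07 SE; limma adjusted p = 0.148). Both mutants lay below both controls. It passed without mutant 2 (adjusted p = 0.0415) and in no other alternative that kept it, where the adjusted p ran from 0.127 with centred arrays to 0.675 without control 1.

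Inward rectifiers had small positive differences in 7 of the 8 genes tested. Kcnj8, the pore of the ATP-sensitive channel of pericytes and smooth muscle, read 7.78 and 7.51 in controls and 7.82 and 7.94 in mutants (difference 0.23 ± 0.11 SE; limma adjusted p = 0.434). Abcc9, the sulfonylurea receptor that assembles with Kcnj8, read 7.57 and 7.43 against 7.67 and 7.87 (difference 0.27 ± 0.09 SE; limma adjusted p = 0.306). The pericyte markers Pdgfrb, Rgs5 and Vtn differed by -0.07, 0.03 and 0.04. Kcnj3, a subunit of G protein-gated channels, read 8.12 and 8.16 in controls and 8.20 and 8.33 in mutants. Kcnj2, a strong inward rectifier, varied too much between arrays to place, at 7.64 and 7.34 against 7.92 and 7.45.

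The 2-pore leak channels contained genes on both sides of 0. Kcnk3 and Kcnk9 encode the acid-sensitive TASK channels. Kcnk3 read 7.39 and 7.36 in controls and 7.55 and 7.48 in mutants (difference 0.14 ± 0.06 SE; limma adjusted p = 0.394). Kcnk9 read 7.60 and 7.54 against 7.47 and 7.35 (difference -0.16 ± 0.07 SE; limma adjusted p = 0.405), so these close relatives lay in opposite directions. Kcnk1 and Kcnk2, known from astrocytes as well as neurons and named here after their values were seen, had means below control as well. Kcnk1 read 9.70 and 9.83 in controls and 9.22 and 9.68 in mutants (difference -0.31 ± 0.15 SE; limma adjusted p = 0.463), mostly through mutant 1. Kcnk2 read 9.46 and 9.35 against 9.30 and 9.20 (difference -0.15 ± 0.07 SE; limma adjusted p = 0.438). Of the 11 Kcnk genes tested, 8 had a higher and 3 a lower mean, and 72.7% were higher where all genes gave 52.3%. Kcnk10, the brightest of them and also named after its values were seen, read 9.82 and 9.77 in controls and 9.92 and 9.84 in mutants.

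**Figure D2:**
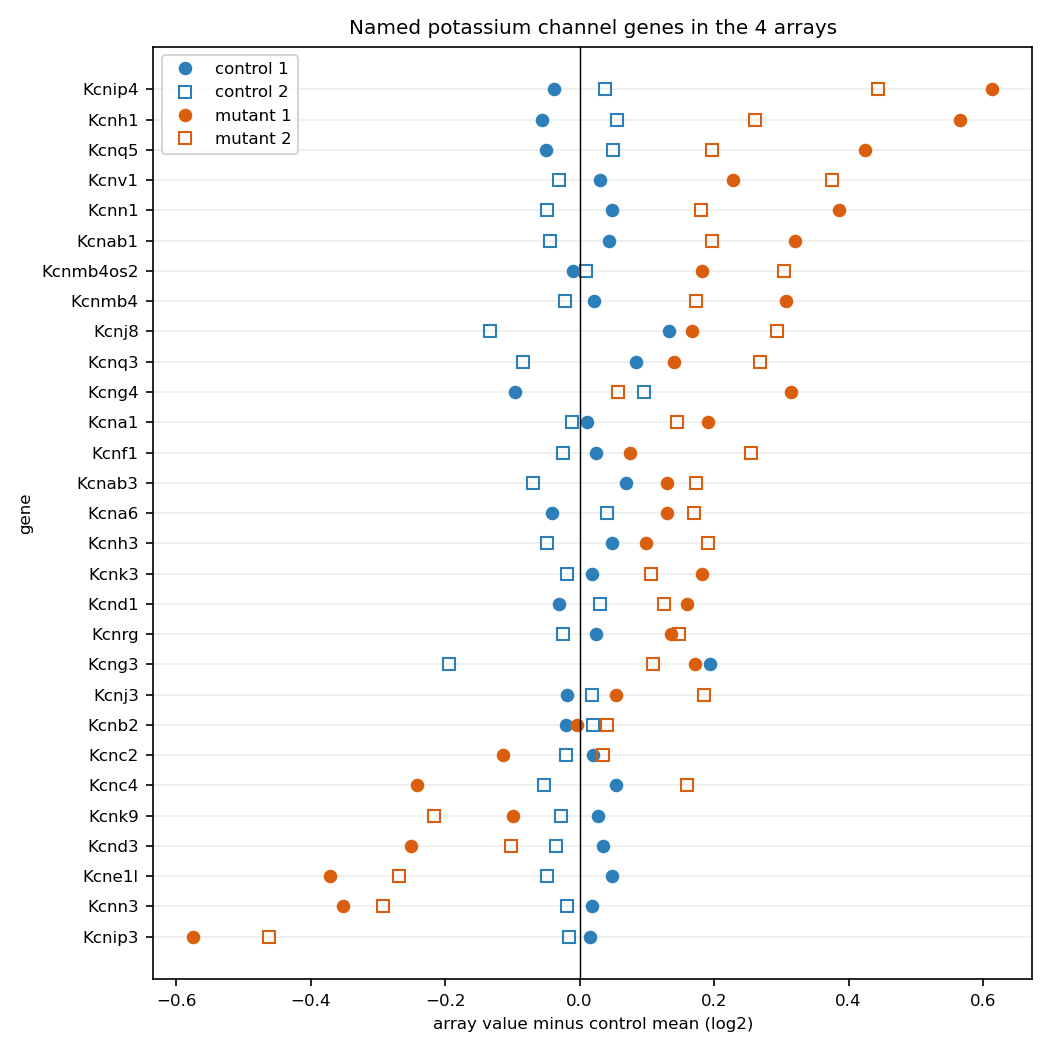
Each named gene (rows) with its 4 arrays as log2 distance from the control mean (horizontal axis); blue marks are controls, orange marks mutants, filled circles replicate 1 and open squares replicate 2. The mutants of Kcnip4 lie above and those of Kcnip3 below both controls, whereas the marks of Kcnb2 and Kcnc2 overlap.

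Of the 91 members, 18 had a mean below 6.16 and were not tested: Kcna5, Kcna7, Kcne1, Kcne2, Kcne3, Kcne4, Kcnj1, Kcnj5, Kcnj6, Kcnj12, Kcnj13, Kcnj16, Kcnk5, Kcnk6, Kcnk18, Kcnmb1, Kcnu1 and Kcnv2. Their means ran from 5.09 to 6.15, where differences depend on the background. Kcnj16, the partner of glial inward rectifiers, read 5.85 and 6.00 in controls and 5.66 and 5.36 in mutants. Kcne3 read 5.00 and 4.81 against 5.27 in both mutants, and Kcne4 read 5.86 and 5.95 against 6.37 and 6.14. These 3 genes were named after their values were seen.

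Counted over the family, 1 of the 73 members tested was called lower, where 1.01% of all genes tested were, and none was called higher, where 0.0143% were (limma). At an unadjusted p under 0.05, 3 members were lower, Kcnip3, Kcnn3 and Kcne1l, against 7.69% of all genes, and 11 were higher, against 5.73% of all genes. The arrays of the groups did not overlap in 33 members with higher mutants, a share of 45.2% where all genes gave 22.8%, and in 10 with lower mutants, a share of 13.7% where all genes gave 21.4%. With the dim genes included, 39 of the 91 members had higher and 12 lower mutants without overlap, shares of 42.9% and 13.2% where all 19938 genes gave 22.5% and 18.6%. The mean was higher in the mutants for 53 of the 73 tested, or 72.6% where all genes gave 52.3%. Of the 73, 57 lay within 0.2 of 0, a share of 78.1% where all genes gave 88%. The median difference of the members was 0.07, and that of all genes tested 0.01. The median of the members lay at 0.10 above the control mean in mutant 1 and at 0.06 in mutant 2, so both mutants were on the same side. For all genes tested it lay at -0.01 in mutant 1 and 0.02 in mutant 2. These counts describe the members as measured in 4 arrays, and no test of the family as a whole was made.

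**Figure D3:**
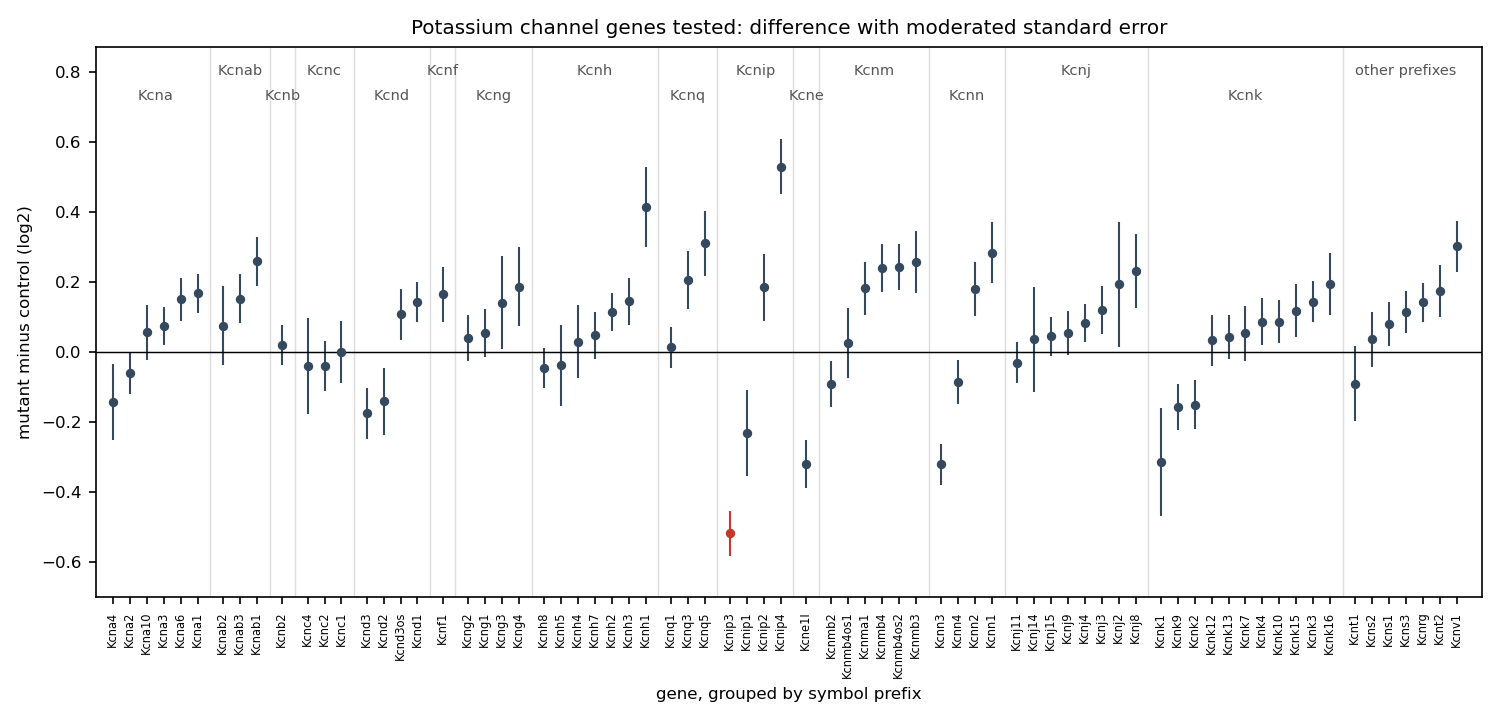
Difference between mutant and control means (vertical axis, log2) for the 73 members tested, ordered within symbol prefixes; bars are the moderated standard error and red marks a limma adjusted p under 0.05. Kcnip3 at -0.52 is the red point, 53 points lie above 0 and 57 lie within 0.2 of it.

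Other genes of ion transport from lists drawn up for comparison included no gene called by limma (0 of 59 tested). At an unadjusted p under 0.05, 3 of them were lower and 11 higher, shares of 5.08% and 18.6% where all genes gave 7.69% and 5.73%. Of 16 partner proteins of potassium channels tested, 8 had a higher mean, a share of 50% where all genes gave 52.3%. Without overlap, 5 had higher and 3 lower mutants, shares of 31.2% and 18.8% where all genes gave 22.8% and 21.4%. Lrrc26, an auxiliary subunit of the large-conductance channel, read 6.36 and 6.40 in controls and 6.69 and 6.57 in mutants (difference 0.25 ± 0.07 SE; limma adjusted p = 0.218). The list of voltage-gated calcium channels, with 21 genes tested, was drawn up by symbol and includes Cacng genes, which are not all channel subunits. Of the 21, 15 had a higher mean, a share of 71.4%. Without overlap, 8 of the 21 had higher and 2 lower mutants, shares of 38.1% and 9.52%. Both lower ones were Cacng genes, Cacng3 at -0.36 and Cacng5 at -0.33, and neither was a Cacna or Cacnb gene. Cacna1g, a low-threshold T-type pore, read 8.29 and 8.45 in controls and 8.89 and 8.81 in mutants (difference 0.48 ± 0.08 SE; limma adjusted p = 0.0699). Cacng5, an auxiliary protein of AMPA receptors, read 7.89 and 7.76 against 7.49 and 7.50 (difference -0.33 ± 0.07 SE; limma adjusted p = 0.122).

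Of 8 sodium channel genes, 5 had a higher mean, a share of 62.5% where all genes tested gave 52.3%. Among them were Scn9a at 0.29 (adjusted p = 0.278 in limma) and Scn8a, a pore of the axon initial segment, at 0.13 (adjusted p = 0.430). The 4 tested genes of the HCN and cyclic nucleotide gated channels all had higher mutants without overlap, by 0.06 to 0.18. Of all genes tested, 22.8% had higher mutants without overlap. The smallest p in limma belonged to Hcn3 (adjusted p = 0.335) and Cngb1 (adjusted p = 0.485). Genes of the sodium pump and the cation-chloride cotransporters went the other way in count, with 7 of 10 lower in mean. The 3 higher ones are a share of 30% where all genes gave 52.3%. Without overlap, 3 were lower and 1 higher, shares of 30% and 10%, where all genes gave 21.4% and 22.8%. Slc12a7, a potassium-chloride cotransporter, differed by -0.24 (adjusted p = 0.207), and Atp1b1, a neuronal pump subunit, by 0.20 (adjusted p = 0.366). Atp1b2, the glial pump subunit, named after its value was seen, read 9.35 and 9.45 in controls and 8.96 and 9.31 in mutants. Its difference of -0.26 came mostly through mutant 1 (limma adjusted p = 0.441).

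**Figure D4:**
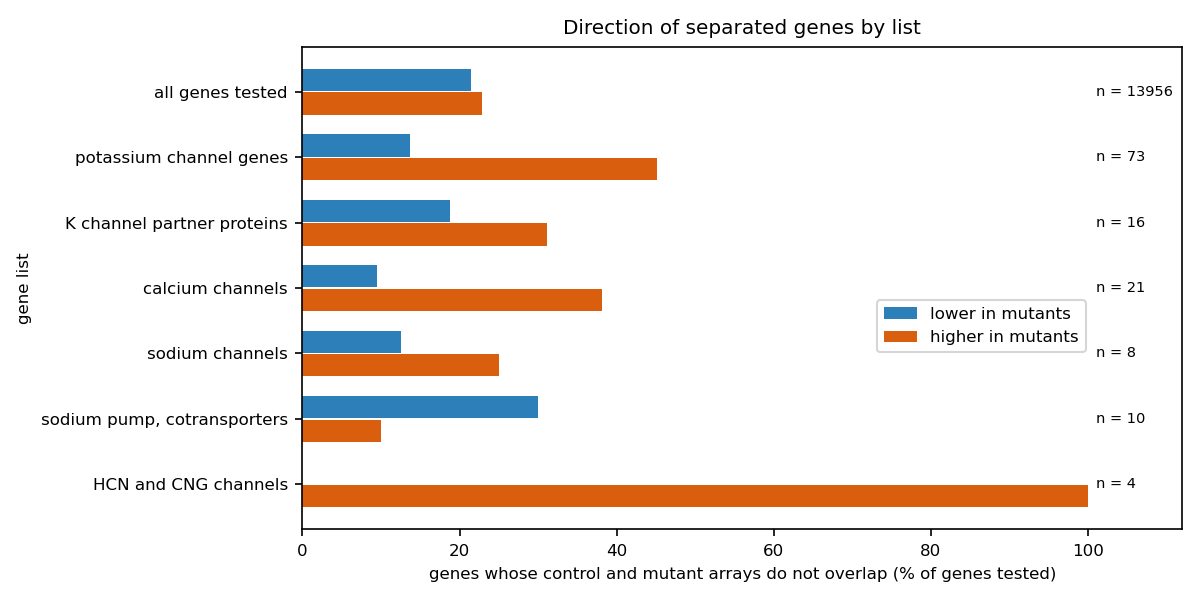
Percent of the genes tested in a list (rows, with the number tested at the right) whose control and mutant arrays do not overlap, lower in mutants in blue and higher in orange. The members show 45.2% higher and 13.7% lower where all genes show 22.8% and 21.4%; the shortest list holds 4 genes.

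Markers of cell types moved in the same samples, on lists drawn up with earlier results of these data known. All 8 astrocyte and radial glia markers tested had a lower mean, and 7 of them were called lower by limma. The summed linear signal of the 9 measured was 14560 to 14870 in controls and 4793 to 5599 in mutants. Of 6 oligodendrocyte precursor markers, 5 had a lower mean and 3 were called lower (summed 1440 to 1451 against 511.9 to 512.5). Of 6 markers of cycling cells, all had a lower mean and 5 were called lower (summed 2467 to 2653 against 1271 to 1445). Of 8 markers of postmitotic neurons none passed and all had a higher mean, by 0.02 to 0.22 (summed 25140 to 25560 against 27310 to 27700). The 4 microglia markers tested had lower means, none past the threshold (summed 875.8 to 895.5 over the 5 measured, against 726.1 to 761.1). Markers of endothelial cells were summed at 1315 to 1349 against 1266 to 1413, and those of GABAergic interneurons at 7161 to 7727 against 6539 to 8071. Markers of striatal neurons were summed at 1031 to 1034 against 1142 to 1235, of thalamic neurons at 1446 to 1657 against 1154 to 1610 and of choroid plexus at 408.2 to 894.2 against 407.6 to 445.4. Pericyte markers summed to 1617 to 1674 against 1521 to 1803, meninges to 627.1 to 637.6 against 545.4 to 636.6, and the 1 red blood cell marker measured to 301.3 to 312.5 against 251.9 to 271.4, and no gene of these lists was called. The part of these shifts in the members' differences, among them those of Kcnip3, Kcnip4 and Kcnn3, was not tested.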

How the data were processed

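Trizol extracts of total RNA were labelled with biotin, per the labels' protocols. The deposited table holds log2 expression values of 35557 features, which the authors made with RMA, per the submitters' processing notes. No source used here gives the software, its version, the build or any filter. The log base was inferred from the span of the values. Depth has no meaning for arrays, and their number limits the precision.

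Features with 1 symbol in the platform annotation (21789) were renamed through Entrez identifiers in RefSeq (21698 matched). The brightest feature stood for each of 19938 genes, and genes with a mean over the 4 arrays under the 30th percentile were left out. The other 13956 genes were fitted by lmFit and eBayes in limma 3.58.1 (R 4.3.3; no covariate, 2 residual and 3.31 prior degrees of freedom), with Benjamini-Hochberg adjustment over all genes and a threshold of 0.05. The fit was tested on simulated data.

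Named were members that were called or differed by at least 0.5 without overlap, the 2 smallest p in each prefix group and in each comparison list, and Map2k1 and Map2k2. Genes outside this rule are values of count, group or marker lists, relatives and partners of named genes, or are said to be chosen after their values were seen. The members and lists were chosen with earlier results of these data known. Alternatives were the filter, the features of a gene, the scaling, a variance trend, the replicate block and leaving out each array.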

Additional observations from a re-analysis of the deposited data

How the results depend on the processing

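The median difference of the members stayed between 0.06 and 0.10 under the alternatives of filter, feature choice, scaling, trend, block and left-out array. Counts of calls in limma moved far more. Members called lower, 1 as reported, numbered 0 when dim genes were kept, 0 with the replicate block and 0 to 5 with 1 array left out; members called higher, 0 as reported, numbered 1 with a variance trend and 0 to 5 with 1 array left out. The most, 5 each way, came without mutant 2, where mutant 1 is assumed to vary like the controls. Over all genes, 141 lower and 2 higher became 15 and 0 with dim genes kept, 217 and 21 with the trend, and 9 to 731 and 0 to 150 with 1 array left out. The number higher was 11 under the stricter filter and 1 after further quantile normalization. In the other ion transport lists, 1 gene was called under the stricter filter, 1 with the trend and 0 to 6 with 1 array left out. The replicate numbers share only a number: deviations of same-numbered arrays correlated at -0.16, and the block gave 113 lower and 3 higher genes. With the numbers crossed, which pairs arrays of 1 sex and was chosen after seeing the data, 17 genes were lower, 0 higher, and 0 members were called either way. Signs turned for Kcnb2 (-0.0031 to 0.0411 with 1 array left out), Kcnc2 (-0.114 to 0.0354), Kcnc4 (-0.24 to 0.16) and Kcng3 (-0.0532 to 0.33); the cause was not tested. Signal over background was not at hand, so dim members have no firm size.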

Other observations

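Single arrays stood apart in genes of other cells and regions, named after their values were seen. Ttr, a choroid plexus transcript, read 6.67 and 9.15 in the controls and 6.50 and 7.17 in the mutants. Mutant 1 was lower than the other arrays for Dcn, a fibroblast proteoglycan (6.70 against 7.81 to 7.84), for Lhx9, a transcription factor of thalamus and medial cortex (6.40 against 7.39 to 7.86), and for Sst, the interneuron peptide somatostatin (9.91 against 10.83 to 11.20). The members Kcnk1 and Kcnip1 were likewise lowest in mutant 1, at 9.22 and 7.52, with mutant 2 at 9.68 and 7.88.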
